A study of Rattus norvegicus with 2 samples.

Results

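The purinergic receptors and ectonucleotidases described here are 10 genes chosen by name: the ATP-gated channels P2rx4 and P2rx7, the nucleotide receptors P2ry1, P2ry2 and P2ry6, the adenosine receptors Adora1, Adora2a and Adora2b, and the surface enzymes Entpd2 and Nt5e. Every probe set carrying 1 of these symbols alone was taken, which gave 12 probe sets of 31099 on the array and all 10 genes of the 14218 that could be named. The series holds 2 single-colour Affymetrix arrays of astrocytes cultured from the hippocampus of Sprague-Dawley rat embryos at embryonic day 18, with the genotype given as normal for both. Cells of the control culture carried the empty IRES2-RFP vector, which makes a red fluorescent protein, and those of the other culture carried the same vector with 5ppase in front of that protein. One label spells the construct 55ppase-IRES-RFP. The series contrasts active calcium signalling (control) with its absence (5ppase), so the comparison asks how the genes of nucleotide and adenosine signalling stood in each state. The labels do not spell out 5ppase, a name commonly used for the inositol phosphate 5-phosphatase that inactivates inositol trisphosphate, and they give neither the promoter, the share of cells that took up the vector nor the number of cultures behind each array. There was 1 array per group, so no test was possible, no value carries a replicate error or p-value, and every difference below describes these 2 arrays only.

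Astrocytes release ATP and answer it through surface receptors, and this is one of the routes by which calcium waves pass between them. P2ry1, P2ry2 and P2ry6 couple through Gq to phospholipase C, which makes inositol trisphosphate and so releases calcium from the endoplasmic reticulum. P2rx4 and P2rx7 admit calcium directly when ATP binds. Outside the cell Entpd2 and related enzymes remove phosphates from ATP and ADP, Nt5e turns AMP into adenosine, and the adenosine receptors raise or lower cyclic AMP.

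P2ry2, the receptor for ATP and UTP, was lower in the 5ppase culture, and none of the other 5 genes that could be compared was more than 1.2-fold apart. A signal floor of 62.0, the 40th percentile of both arrays together, was set because probe sets under it scatter widely, and a gene was compared when both its signals exceeded the floor and the higher of them reached 208, the 60th percentile. P2rx4, P2ry2, P2ry6, Adora2b, Entpd2 and Nt5e met this, Adora1 lay above the floor on the control array only, and P2rx7, P2ry1 and Adora2a lay under it on both. Of the 6 compared genes 1 was at least 1.5-fold lower in 5ppase, beside 5.46% of the 8261 genes compared across the array, and 0 were at least 1.5-fold higher, beside 5.25%. None was 2-fold apart in either direction (1.5% of all compared genes were 2-fold higher and 1.42% 2-fold lower). The median log2 ratio of 5ppase over control was 0.12 over the 6 genes and -0.017 over all compared genes. With 6 genes, 1 is not read as a departure from that background.

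**Figure D1:**
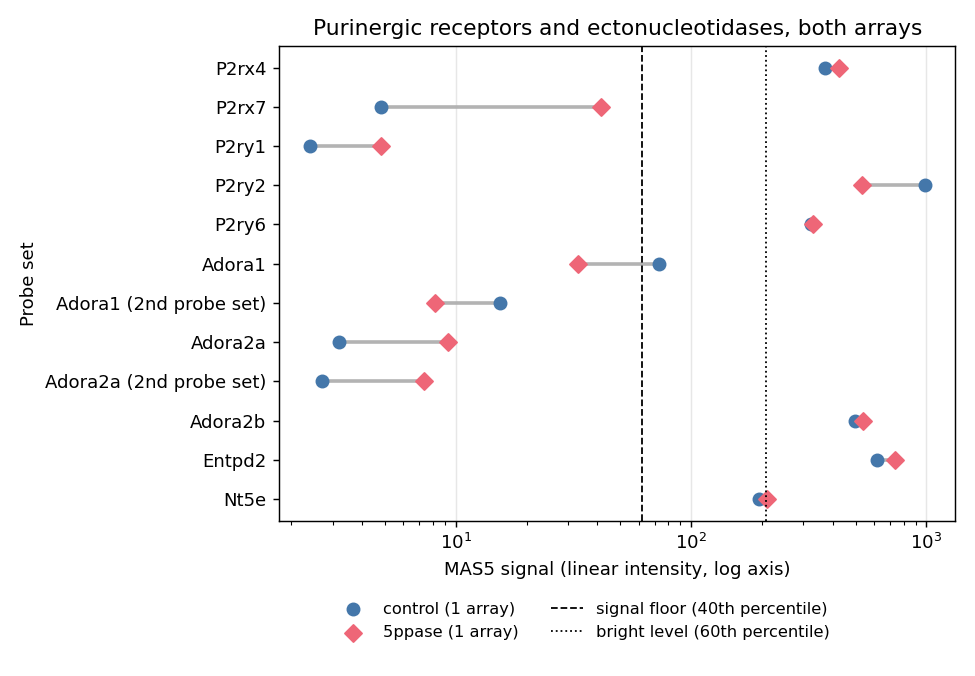
MAS5 signal (x axis, log scale) of the 12 probe sets of the 10 genes for control (circles) and 5ppase (diamonds), with the signal floor at 62.0 (dashed) and the bright level at 208 (dotted). Among probe sets with both symbols right of the floor, those of P2ry2 stand clearly apart, at 984 and 532, and those of P2ry6 nearly coincide.

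The single probe set of P2ry2 read 983.8 in the control culture and 532.3 in the 5ppase culture. The control signal was thus 1.85-fold that of 5ppase, a log2 ratio of -0.89. Of all compared genes, 1.95% (161) had a ratio as low or lower. P2ry2 is singled out as the lowest of the members compared, and the members were chosen with earlier results of these data known. The share is therefore a description and not a test. The log2 ratio was larger in size than the SD between probe sets of 1 gene, the only internal repeat on these arrays. Over 1883 genes with at least 2 compared probe sets, the log2 ratios of the brightest pair gave an SD of 0.26 per probe set. An SD is a typical size and not a limit, and single genes can disagree by more. Entpd5, for example, gave 0.37 at its brightest probe set and -0.80 at another. That SD covers noise particular to a probe set. Labelling or array effects that the probe sets of a gene share cancel out of it, and it does not cover differences between cultures. P2ry2 has no second probe set of its own.

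P2ry6, the receptor for UDP, read 323.8 for control and 330.1 for 5ppase, a log2 ratio of 0.028. Its arrays were level, and the sign of this small ratio turned when the arrays were set to a common median (-0.0029). In the rat RefSeq gene table P2ry2 and P2ry6 are neighbours, with no other protein-coding gene between them, and both couple to Gq. The first differed by 1.85-fold between the arrays and the second by 1.02-fold. P2ry1, an ADP receptor that couples to Gq as well, gave 2.4 and 4.8, both far under the floor, so its probe set gives no usable ratio. A signal under the floor is not a measurement of absence, since no detection calls were used.

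Of the ATP-gated channels only P2rx4 was bright enough to compare. Its signal was 372.5 for control and 423.6 for 5ppase, a log2 ratio of 0.19, which is less than the probe set SD of 0.26. Its probe set has the suffix _a_at, which Affymetrix gives to sets that read several transcripts of 1 gene. P2rx7, a channel that opens at high ATP concentrations, gave 4.8 and 41.6, an 8.67-fold difference with both signals under the floor. Such ratios are common among dim probe sets: of the 11001 probe sets at or under the floor on both arrays 11.4% were at least 8-fold apart, with 6.01% higher and 5.39% lower in 5ppase. In the RefSeq table P2rx7 is the neighbour of P2rx4.

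**Figure D2:**
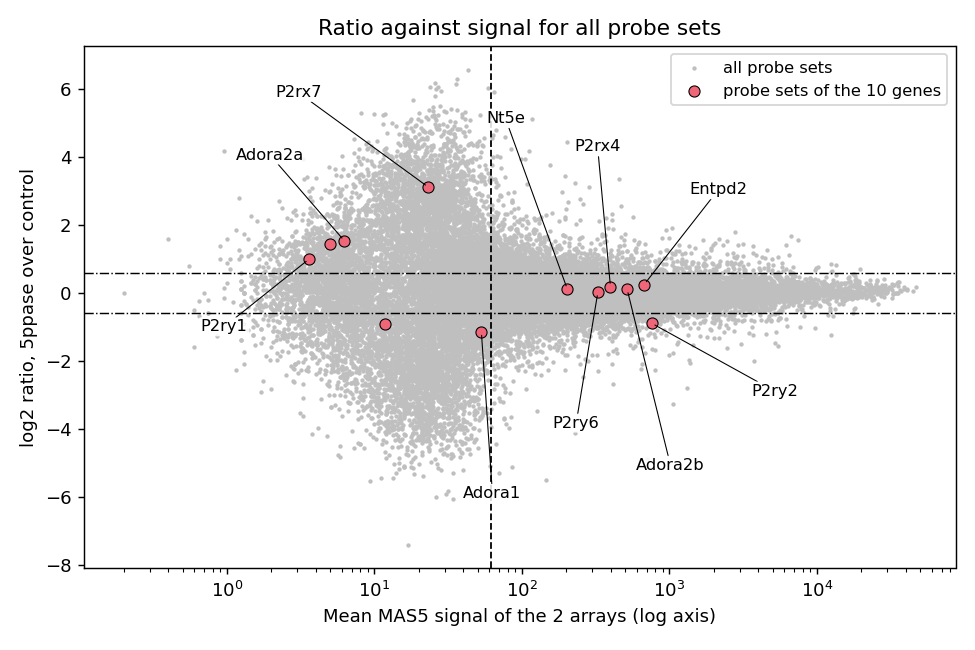
Log2 ratio of 5ppase over control (y axis) against the mean MAS5 signal of the 2 arrays (x axis, log scale) for all 31099 probe sets (grey) and the 12 probe sets of the 10 genes (red, the brightest of each gene named), with 1.5-fold (dash-dotted) and the floor of 62.0 (dashed). Left of the floor ratios spread widely and P2rx7 at 3.12 lies within that spread; right of it P2ry2 at -0.89 lies outside the 1.5-fold lines and the other 5 compared genes lie inside.

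Among the adenosine receptors Adora2b, which stimulates adenylyl cyclase and responds at high adenosine, was compared. Its signals were 495.6 for control and 537.0 for 5ppase, a log2 ratio of 0.12 and a difference smaller than the probe set SD. Adora1, which inhibits adenylyl cyclase, gave 72.9 and 33.2 at its brighter probe set. The control signal stood just above the floor and that of 5ppase under it, which makes the control signal at least 1.18-fold higher when the floor stands in for the dim array. Its second probe set was dim in both cultures, at 15.4 and 8.2. Of the 2856 probe sets above the floor on 1 array only and under 208 on both, 23.3% were 2-fold or more lower in 5ppase, as the Adora1 signals, 2.20-fold apart, were. The 2856 include sets above the floor on the 5ppase array only, which cannot be lower there. Among sets above it on the control array only, like that of Adora1, the share is therefore higher. Adora2a, also a stimulator of adenylyl cyclase, gave 3.2 and 9.3 at one probe set and 2.7 and 7.3 at the other. All 4 signals were under the floor, where 51.5% of probe sets were at least 2-fold apart.

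Both surface enzymes were within 1.2-fold. Entpd2, which removes a phosphate from ATP to leave ADP, read 614.5 for control and 732.1 for 5ppase, a log2 ratio of 0.25 and the highest ratio of the 6 compared genes. Nt5e, which makes adenosine from AMP, gave 195.0 and 211.2 (0.12), and was compared only because its 5ppase signal passed 208. Neither ratio reached the probe set SD of 0.26. Of all compared genes 61.3% lay within 1.2-fold, a limit chosen after the values were seen, and 47.9% had a positive ratio, against 5 of the 6 genes here. All 5 positive ratios were smaller than the probe set SD, and that of P2ry6 changed sign with the scaling. Their shared sign is therefore not read as a result.

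**Figure D3:**
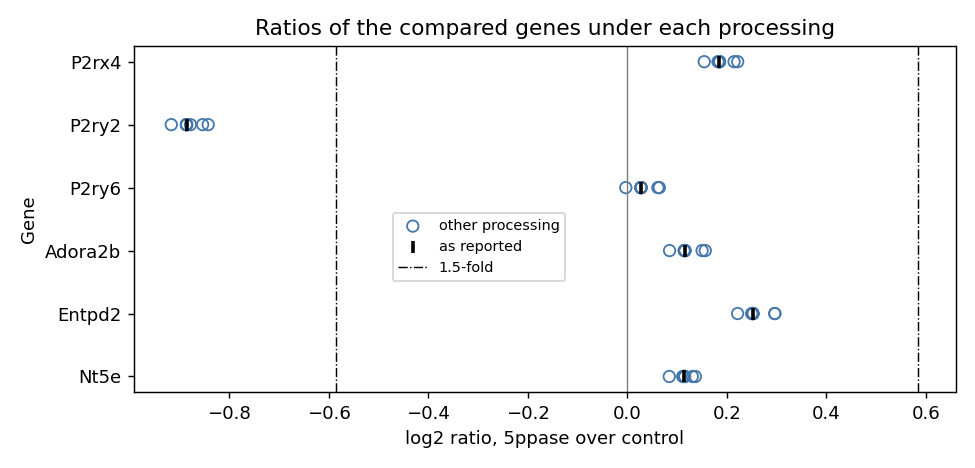
Log2 ratio of 5ppase over control (x axis) of the 6 compared genes as reported (black bars) and under the other ways of processing the signals (open circles), with 1.5-fold marked (dash-dotted). P2ry2 stays between -0.92 and -0.84, below the lower 1.5-fold line, and the other 5 genes stay between -0.0029 and 0.30. Each gene has a single probe set, so settings that change only the floor or the probe set choice cannot move its circle.

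The remaining pathway was followed in a list of 38 other genes, of which 32 were on the array under their own symbol and 9 were compared. Of the 9, 2 were at least 1.5-fold higher in 5ppase (5.25% of all compared genes were) and 0 at least 1.5-fold lower (5.46%), with a median log2 ratio of 0.17 beside -0.017 for all compared genes. The 2 were Enpp1, a surface enzyme that splits ATP into AMP and pyrophosphate, at 405.2 in control and 696.8 in 5ppase (0.78), and Panx1, a channel through which cells release ATP, at 142.0 and 266.1 (0.91). The other probe sets of Panx1 gave 12.1 and 9.5, and 3.0 and 2.6, under the floor on both arrays, and Panx1 entered the comparison through its 5ppase signal alone, as did Enpp2. The same limit of 208 left out Entpd6, an intracellular or secreted nucleotidase that was lower in 5ppase (151.5 and 95.0, log2 ratio -0.67). The 2 against 0 and the median are therefore descriptions of the genes that passed and not of the list. A further 18 of the 32 were dim on both arrays and are given no ratio; they include P2rx1, P2rx2, P2rx5, P2rx6, P2ry4, P2ry10, P2ry12 and P2ry14. Another 3 lay above the floor on both arrays without reaching 208 and were not compared: Entpd6, P2rx3, which read 67.6 and 85.4, and the nucleoside transporter Slc29a2, which read 125.7 and 158.0. The second probe set of Slc29a2 went the other way, at 136.5 and 102.1.

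The list held 7 enzymes that act outside the cell, of which 2 were compared, 2 stood above the floor on 1 array and 3 were dim on both. Besides Enpp1, the lysophospholipase D Enpp2, which makes lysophosphatidic acid, gave 168.0 and 249.3 (log2 ratio 0.57), just short of 1.5-fold, and was compared only through its 5ppase signal. Enpp3, a nucleotide pyrophosphatase, gave 27.9 and 112.5, and Alpl, an alkaline phosphatase that also takes AMP and pyrophosphate, gave 8.7 and 117.5. Both stood above the floor on the 5ppase array only, at least 1.81-fold and at least 1.90-fold higher with the floor in place of the dim signal. Neither reached 208, each rests on 1 probe set, and that of Alpl has the suffix _s_at, which marks sets that can read more than 1 gene. Enpp2, Enpp3 and Alpl were named after their values were seen. Enpp3 and Alpl cleared the floor only on the array where they are high, so their shared direction is not read as a result. Entpd1 (3.0 and 24.2), Entpd3 (56.2 and 36.0) and Entpd8 (17.4 and 5.5) were the 3 dim ones.

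Compared genes that act inside the cell, carry adenosine or release ATP had small ratios at the probe set used, except Panx1 and Entpd5. Second probe sets of Pnp and Entpd5 lay further down. Adk, which returns adenosine to AMP, read 1579.2 for control and 1458.8 for 5ppase, a log2 ratio of -0.11, with 0.33 at its second probe set. Pnp, which breaks down inosine, gave 4853.9 and 4914.4 (0.018) at its bright probe set but 134.0 and 58.6 (-1.19) at the other, where the 5ppase signal is under the floor. The lysosomal nucleoside transporter Slc29a3 gave 540.2 and 525.6 (-0.040). The signs of the Pnp and Slc29a3 ratios changed with the scaling of the arrays. Entpd4, a nucleotidase of the Golgi and lysosome, gave 681.8 and 764.8 (0.17), and Lrrc8a, a subunit of the volume-regulated anion channel that can pass ATP, gave 2074.6 and 2296.7 (0.15). Entpd5, a nucleotidase of the endoplasmic reticulum, was 266.4 and 343.3 (0.37) at the probe set used but 270.3 and 155.0 (-0.80) at its second, so its direction depends on the probe set.

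**Figure D4:**
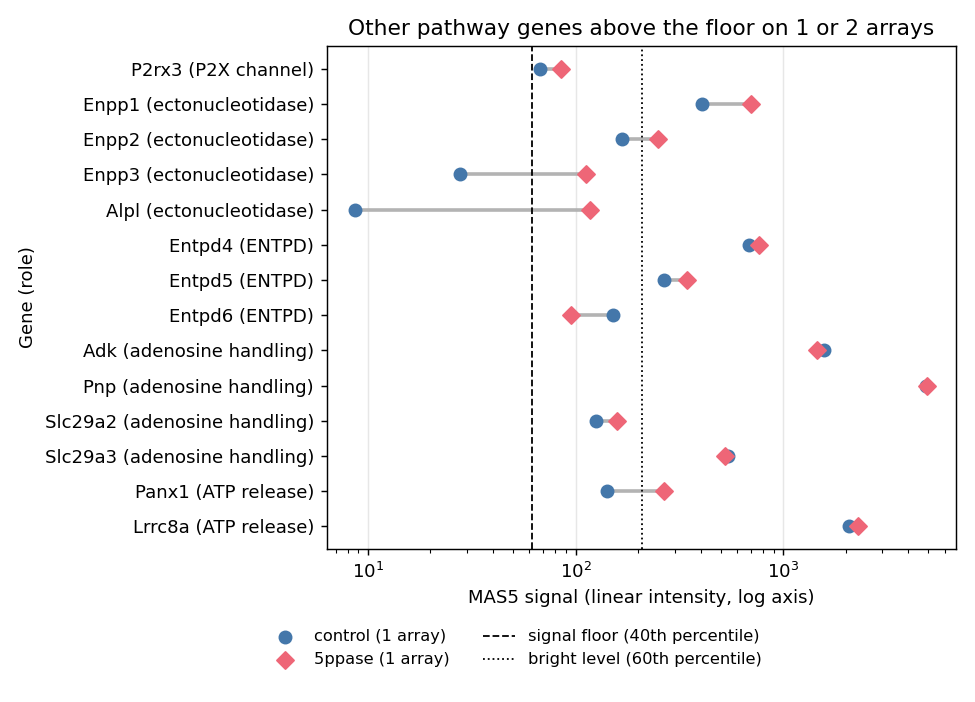
MAS5 signal (x axis, log scale) for control (circles) and 5ppase (diamonds) for the other genes of the pathway that lay above the floor on 1 or both arrays, with their role, the floor of 62.0 (dashed) and the bright level of 208 (dotted). Enpp1, Enpp2, Enpp3, Alpl and Panx1 have the diamond to the right, Entpd6 has it to the left, and Adk, Pnp, Slc29a3 and Lrrc8a nearly coincide.

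Markers of the cell types a hippocampal culture can hold differed as well. Of 12 astrocyte markers on the array 9 were compared, of which 7 were lower in 5ppase and 2 higher, with a median log2 ratio of -0.75 and a summed signal of 49398 in control and 28426 in 5ppase. Gfap, the astrocyte filament protein, gave 17525 and 7408 and was the largest single signal in the control sum. The 2 higher markers were nearly level: S100b gave 3483.2 and 3611, and Gja1 gave 7281.8 and 7655.9. The P2ry2 ratio of -0.89 lay in the same direction as the 7 lower markers. Entpd2, in brain known as an enzyme of astrocytes, had a ratio of 0.25. Whether fewer astrocytes or less RNA per cell lies behind a lower signal cannot be told apart in bulk RNA, and the part of the markers in the P2ry2 value was not tested.

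Fibroblast and meningeal markers, whose cells can carry Nt5e, had a summed signal of 136701 and 122587, a sum made up largely of collagens and fibronectin. Of 8 compared markers 6 were lower in 5ppase, with a median log2 ratio of -0.45. Mgp (-3.26) and Igfbp5 (-2.06) were furthest down, Pdgfra (-0.66) and Postn (-0.58) were lower too, and Col1a1, a fibrillar collagen of fibroblasts, read 32792 and 32415. The 2 higher markers were Col3a1 (0.14) and Fn1 (0.013), and Dcn and Lum lay under the floor on both arrays. Microglia are known for P2rx4, P2rx7, P2ry6 and P2ry12. Of 17 microglial markers on the array 12 were under the floor on both arrays, among them Cx3cr1, Itgam, Trem2 and P2ry12, Aif1 gave 56.1 and 71.5 and Csf1r 68.8 and 77.5. The 2 compared were Tmem119 (1078.1 and 2272.6) and Cd14 (1427.9 and 1819.8), both higher in 5ppase, and these made up most of the summed signal of 2823 and 4567. Neuron markers summed to 6686 and 13126, most of it from Stmn2 in 5ppase (3766.0 and 11065.5). Of the 4 compared neuron markers 2 were higher, Stmn2 and Tubb3, and 2 lower, Map2 (log2 ratio -0.52) and Gad1 (-1.24). Endothelial and pericyte markers summed to 1555 and 1887, with Cspg4 higher (1.27) and Pdgfrb lower (-0.15) as the 2 compared. These 2 made up most of the sum, and 5 of the 8 on the array, among them Pecam1, Kdr and Cldn5, were under the floor on both arrays. Oligodendrocyte markers summed to 1210 and 924, most of it from Cnp (996.3 and 737.3), the only 1 compared. Of the 7 on the array 5 were under the floor on both, among them Mog, Mag and Sox10. No probe set of the whole array was at 0, the lowest signals being 0.1 in control and 0.2 in 5ppase. A marker signal above 0 thus does not show that a cell type was present. The part of these cell types in the values above was not tested.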

How the data were processed

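Total RNA of the control sample and of the 5ppase sample was labelled with biotin from 6 micrograms, per the labels' protocols. The deposited values are single-colour intensities on a linear scale per probe set, made by the authors with MAS5 per the submitters' processing notes; neither a version nor settings could be read there. Both arrays had a trimmed mean of 500.2 (2% removed at each end) and 0 sample columns were unused. Scaling to this common mean moved neither array noticeably.

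Gene symbols came from the platform's annotation, some of it possibly outdated: 20832 probe sets carried 1 symbol, 436 several and 9831 were not listed. Of the first, 20764 matched a rat RefSeq entry (GRCr8) by gene identifier and 0 symbols changed. A gene was read from whichever of its probe sets was brightest on average. Ratios are log2 of 5ppase over control, and ratios of dim signals carry a bound against the floor. Members and lists were chosen with earlier results of these data known. Named were all 10 members, other pathway genes at least 1.5-fold apart and the brightest compared gene of each role; others are marked or serve as context. The number of arrays limits the precision. The procedure was tested on simulated data. Python 3.11.15, numpy 2.4.6, pandas 2.3.3 and statsmodels 0.14.6 were used.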

Additional observations from a re-analysis of the deposited data

How the results depend on the processing

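Scaling was varied by leaving the values as deposited, by a common median, by quantiles and by subtracting a loess curve of span 0.3. The floor was set at the 25th percentile, or at the 60th with the 75th required of the brighter array, or replaced by a pseudocount of 6.40 with no filter. Genes were also read from the average of their probe sets, from sets free of the _x_at and _s_at suffixes, or from the second brightest set. The P2ry2 ratio stayed between -0.92 and -0.84 in the 9 that gave a value, and the median of the compared genes between 0.085 and 0.15. That median was not always over the same genes: the 60th percentile floor left only 3, P2ry2, Adora2b and Entpd2. Each compared member has a single probe set, so a changed floor or probe set choice could not move its ratio. Only the scalings and the pseudocount could, and the deposited values were already on nearly the same scale. Second probe sets gave no value for the 10 genes, since only Adora1 and Adora2a have one and both are dim. With the pseudocount all 10 genes entered: 2 were 1.5-fold higher (P2rx7 2.10, Adora2a 0.71), 2 lower (P2ry2 and Adora1), 1 was 2-fold higher (P2rx7) and 1 2-fold lower (Adora1), and P2ry1 stood at 0.35; the dim genes enter by construction, and 14.1% and 12.6% of all genes were then 1.5-fold higher and lower. In the other pathway genes that setting gave 7 higher and 3 lower. Removing the loess curve gave 3 higher and 0 lower, the 60th percentile floor 1 higher and 0 lower, the mean of probe sets 1 higher and 1 lower, and second probe sets 0 higher and 1 lower, against 2 and 0 as reported. No paired analysis was possible because each group has 1 array.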
